A study of Mus musculus with 12 samples.

Results

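This report describes 10 collagen genes in the mouse heart, out of 16514 genes that the deposited tables list: the collagen IV genes Col4a1, Col4a2, Col4a3, Col4a4 and Col4a5, the multiplexin genes Col15a1 and Col18a1, and the collagen VI genes Col6a1, Col6a2 and Col6a3. They were taken by name, and all 10 were listed in all 4 tables and passed the filter on low values in every comparison. Polyadenylated RNA came from hearts of male C57Bl/6J mice, 12 weeks old. The mice ate a BCAA-control diet or a BCAA-free diet, where BCAA stands for the branched-chain amino acids, namely leucine, valine and isoleucine. Both diets carried 1% propionate, so no group lacks propionate. Feeding started 4 days ahead of the operation, which was a sham procedure or transverse aortic constriction (TAC), in which the aortic arch is narrowed and the left ventricle must pump against a raised pressure. Hearts were taken 1 week after surgery. With 3 libraries in each, the 4 groups are called control sham and control TAC, on the BCAA-control diet, and BCAA-free sham and BCAA-free TAC. Whether the 3 libraries come from different animals is not stated in the labels, and p-values therefore speak of the spread between libraries, which may be technical.

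Collagen IV is the network-forming collagen of basement membranes, the thin sheets on which endothelial cells sit and which wrap each heart muscle cell. A pair of α1 chains, from Col4a1, and an α2 chain, from Col4a2, wind into its common trimer, while α3, α4 and α5 form a separate trimer best known from kidney and inner ear. Collagens XV and XVIII are proteoglycan-like collagens that lie at basement membranes, and the end of collagen XVIII can be cut off as endostatin. Collagen VI, built mostly from an α1, an α2 and an α3 chain, makes beaded filaments that tie the basement membrane to the surrounding matrix. In the heart, collagen VI is made mainly by fibroblasts.

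Several of these genes are neighbours in the genome (GRCm38, GENCODE M21 annotation). Col4a1 (ENSMUSG00000031502, chr8:11198423-11312826, minus strand) and Col4a2 (ENSMUSG00000031503, chr8:11312805-11449287, plus strand) are transcribed away from each other, and their 5′ exons overlap by 22 bases. Col4a4 (chr1:82448423-82586849, minus strand) and Col4a3 (chr1:82586921-82722059, plus strand) form a like pair with 71 bases between their starts. Col4a5 (chrX:141475385-141689234, plus strand) stands beside Col4a6, with 1308 bases between the starts. Col6a2 (chr10:76595762-76623630), Col6a1 (chr10:76708792-76726168) and Col18a1 (chr10:77052178-77166548) lie in this order on the minus strand, with gaps of 85161 and 326009 bases. Col15a1 (chr4:47208161-47313167, plus strand) and Col6a3 (chr1:90765923-90843971, minus strand) stand alone. All 10 are protein-coding. Whether reads were counted by strand is not given in the sources used here, and Col4a3 shares 563 exon bases with the opposite-strand gene C430014B12Rik, so the values of Col4a3 may hold reads of that gene.

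Promoter sequence is shown for Col15a1 and Col18a1, which had the largest diet and surgery differences of the 10 genes, and for Col6a1, Col6a2 and Col6a3, whose levels moved together. The stretches are RefSeq promoter sequence on GRCm38, written 5′ to 3′ on the strand of the gene, with bases of annotated exons left out. Capitals mark a GC box (GGGCGG, read as CCGCCC on the other strand) or a CCAAT box (read as ATTGG on the other strand).
Col15a1, chr4:47207762-47208011, plus strand: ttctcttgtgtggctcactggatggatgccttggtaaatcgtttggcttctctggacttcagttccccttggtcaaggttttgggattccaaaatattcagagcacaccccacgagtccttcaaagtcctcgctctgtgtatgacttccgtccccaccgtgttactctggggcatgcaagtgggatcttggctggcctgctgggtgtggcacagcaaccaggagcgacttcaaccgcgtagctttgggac
Col6a1, chr10:76726169-76726294, minus strand: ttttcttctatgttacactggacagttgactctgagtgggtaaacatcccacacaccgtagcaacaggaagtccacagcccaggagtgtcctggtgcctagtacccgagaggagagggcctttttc
Col6a2, chr10:76623631-76623880, minus strand: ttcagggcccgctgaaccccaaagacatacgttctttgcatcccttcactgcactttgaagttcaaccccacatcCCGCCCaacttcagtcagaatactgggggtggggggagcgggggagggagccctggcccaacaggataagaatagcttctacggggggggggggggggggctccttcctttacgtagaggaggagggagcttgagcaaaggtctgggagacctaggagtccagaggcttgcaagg
Col6a3, chr1:90843972-90844221, minus strand: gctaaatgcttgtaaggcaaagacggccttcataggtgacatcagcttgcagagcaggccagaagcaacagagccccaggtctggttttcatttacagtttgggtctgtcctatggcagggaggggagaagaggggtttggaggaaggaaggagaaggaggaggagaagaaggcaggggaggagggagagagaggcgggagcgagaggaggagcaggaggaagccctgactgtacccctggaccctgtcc
Col18a1, chr10:77166549-77166780, minus strand: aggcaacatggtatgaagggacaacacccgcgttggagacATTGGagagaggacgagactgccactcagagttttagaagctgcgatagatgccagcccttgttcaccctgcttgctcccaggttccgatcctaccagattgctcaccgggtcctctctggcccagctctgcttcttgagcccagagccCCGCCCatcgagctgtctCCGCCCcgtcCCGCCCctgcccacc
The stretch of Col18a1 held 3 GC boxes and 1 CCAAT box, that of Col6a2 held 1 GC box, and those of Col15a1, Col6a1 and Col6a3 held neither. Windows from 250 bases before to 50 bases after the start were available for 9 of the 10 genes, 11 windows in all, and not for Col4a3. Col6a2 and Col18a1 each had a second window, for which no separate stretch is shown. That of Col6a2 held 3 GC boxes and no CCAAT box, and that of Col18a1 held neither. Searched on both strands, GGGCGG was in 6 of the 11 windows and in 35.7% of all 32851 RefSeq promoters, and CCAAT was in 4 and in 37.4%. TATAAA was in 0 of the 11 and in 13.6% of all promoters, and TGANTCA, the letters of an AP-1 site, was in 1, that of Col6a1 and outside the stretch shown, and in 7.81% of all promoters. Windows of Col4a1 and Col4a2 share bases, as do those of Col6a2 with each other, so these counts are not independent.

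Libraries held 29929161 to 46101244 recovered reads. Levels are given as normalised reads, which are reads divided by a size factor computed over all 12 libraries. Some libraries stood apart. BCAA-free TAC replicate 1 had the highest level of its group for 9 of the 10 genes, all but Col18a1, and lay inside the range of control TAC for 8, while the other 2 libraries of its group lay below all 3 control TAC libraries for 9. Control TAC replicate 3 held 6668 reads of the liver transcript Alb, against 0 to 3 in each other library that lists it, and control TAC replicate 2 held 4461 normalised reads of 3 RNA polymerase III transcripts, against 54.8 to 983 elsewhere. Values without these libraries stand beside many of the results that use them. BCAA-free TAC replicate 1 was singled out by the levels of these same genes. Larger falls with diet in TAC hearts without it follow from that choice, so they show its weight and are no separate support. Summed levels of 3 skeletal muscle markers were 419, 250 and 156 normalised reads in BCAA-free TAC replicates 1 to 3, against 59.2 to 121 elsewhere. The part of this signal in the collagen levels was not tested.

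Per kilobase of the longest protein-coding transcript, Col4a1 and Col4a2 had the highest levels of the 10 in every group, and Col4a4 and Col4a3 the lowest. In control sham hearts Col4a1 stood at 2440 ± 496 and Col4a2 at 2214 ± 425 normalised reads per kilobase (SD, n = 3), and their ranges overlapped. Col6a1 followed at 1029 ± 41.2, then Col6a2 at 844 ± 56.1 and Col15a1 at 738 ± 96.5, and the last of these overlapped each other. Col4a5 (195 ± 10.7), Col6a3 (145 ± 37.1) and Col18a1 (111 ± 24.3) overlapped from neighbour to neighbour. Col4a4 at 37.3 ± 4.33 and Col4a3 at 18.0 ± 3.55 normalised reads per kilobase were apart from these and from each other. When all exons of a gene counted towards its length, Col15a1 (601 ± 78.6) lay above Col6a2 (472 ± 31.3), so the order of that pair depends on the length used. By the longest transcript, Col18a1 (238 ± 57.0) moved from place 8 to place 6 in control TAC hearts, with a range that overlapped those of Col6a3 and Col4a5. With all exons counted it stayed at place 8 (190 ± 45.4), so this move too depends on the length used.

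The 10 genes were compared on the scale of log2(value + 4). Col18a1 and collagen VI genes rose after TAC, and Col4a1, Col4a2, Col15a1 and collagen VI genes fell on the BCAA-free diet in sham hearts. On the control diet 3 of 10 rose after TAC and 0 fell, where 3.4% of all 15873 genes tested rose and 1.94% fell. On the BCAA-free diet 4 of 10 rose after TAC and 0 fell, where 2.94% of 15936 genes rose and 1.37% fell. In sham hearts 6 of 10 fell and 0 rose on the BCAA-free diet, where 1.76% of 15596 genes fell and 1.05% rose. In TAC hearts 0 of 10 passed, where 3.38% of 16222 genes passed and 2.11% fell. This count was 0 with edgeR and with DESeq2 as well, and 3 members had an unadjusted p under 0.05 by limma, as did 19.9% of all genes. With the replicate numbers as a block in limma, Col4a1, Col4a2, Col15a1 and Col6a3 passed (adjusted p = 0.0235 to 0.047), as did 1275 of the 16222 genes in all. Averaged over surgery, 7 of 10 fell and 0 rose on the BCAA-free diet, where 6.57% of 15458 genes fell and 5.19% rose. All 3 TAC libraries lay above all 3 sham libraries for 5 of the 10 genes on the control diet, where 14.5% of all genes did so, and for 6 on the BCAA-free diet, where 14% did. All BCAA-free libraries lay below all control libraries for 7 of the 10 in sham hearts (11.8% of all genes) and for 0 in TAC hearts (13%). The median log2 difference of the 10 genes was 0.43 and 0.62 for TAC on the control and BCAA-free diets, -0.56 and -0.36 for diet in sham and TAC hearts, and -0.47 for diet on average, while that of all genes was 0.00, -0.00, 0.00, 0.00 and 0.01. The contrasts share groups: each group enters a surgery contrast and a diet contrast, so these counts are not independent of each other. Adjusted p-values are from limma with Benjamini-Hochberg adjustment over all genes, with a threshold of 0.05, and ± after a log2 difference is its SE.

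**Figure D1:**
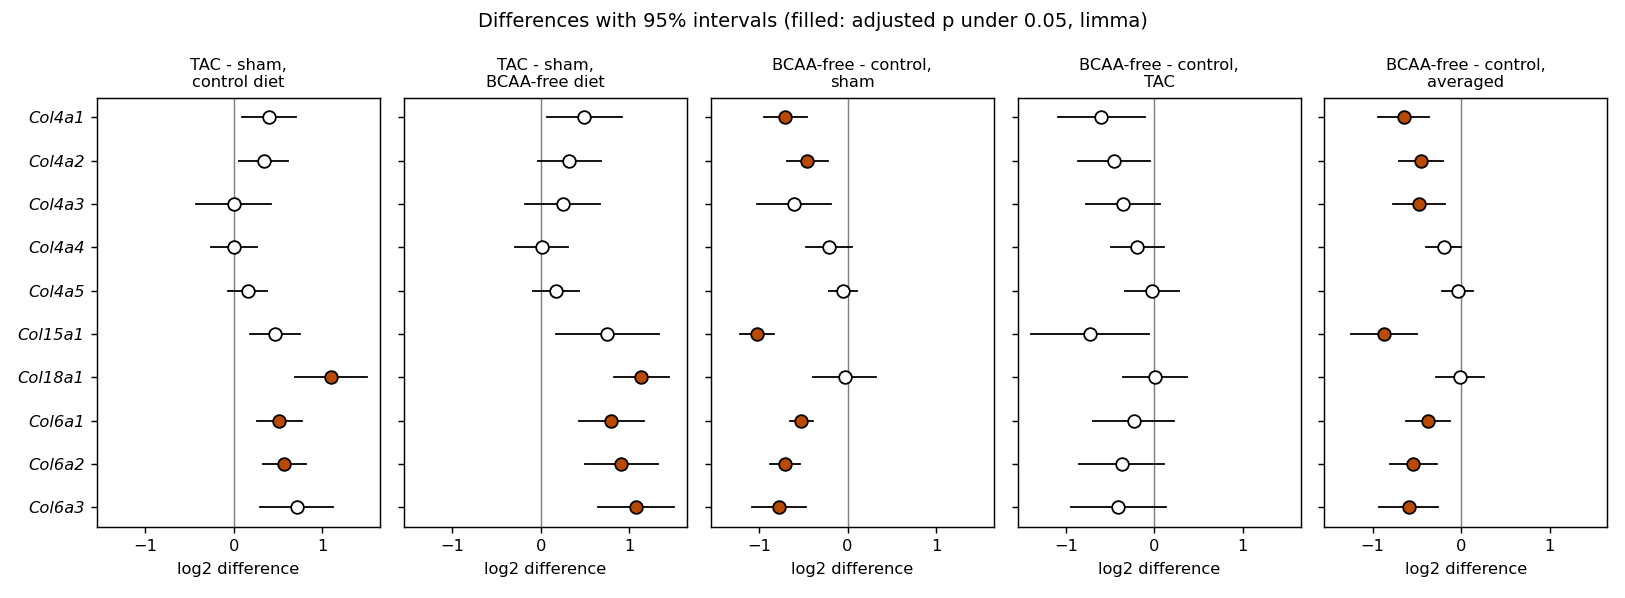
Log2 difference of each gene (points) with its 95% interval (lines) for TAC minus sham on each diet and for BCAA-free minus control diet in sham hearts, in TAC hearts and averaged over surgery; filled points passed an adjusted p of 0.05 in limma. Col18a1 and the collagen VI genes lie to the right of 0 in both surgery panels, and 6 filled points lie to the left of 0 in the panel for sham hearts.

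Col4a1, which encodes the α1 chain of the common collagen IV trimer, was lower in sham hearts without dietary BCAA. Its levels in control sham replicates 1 to 3 were 14266, 19927 and 14233 normalised reads, and in BCAA-free sham 9768, 10210 and 9387. Every BCAA-free sham library lay below every control sham library, and Col4a1 fell by 0.70 ± 0.11 on the log2 scale, a change of -38.5% (adjusted p = 0.00933). In control TAC replicates 1 to 3 it stood at 23078, 18446 and 21639 normalised reads, and in BCAA-free TAC at 20886, 10889 and 11447. The first BCAA-free TAC library lay among the control TAC libraries and the other 2 below them, and the difference of -0.60 ± 0.22 did not pass (adjusted p = 0.171). Without BCAA-free TAC replicate 1 the difference was -0.90 ± 0.10 (adjusted p = 0.00228). TAC against sham gave 0.40 ± 0.13 on the control diet (adjusted p = 0.117) and 0.49 ± 0.19 on the BCAA-free diet (adjusted p = 0.173), and the second was 0.19 ± 0.07 without BCAA-free TAC replicate 1 (adjusted p = 0.126). Averaged over surgery, Col4a1 fell by 0.65 ± 0.14 with diet (adjusted p = 0.00873). The TAC difference on the control diet passed without control sham replicate 2, the library with the highest sham level (0.56, adjusted p = 0.0238).

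Col4a2, its partner in the trimer, had smaller diet differences than Col4a1 in both surgeries. Control sham libraries held 12708, 17446 and 12679 normalised reads and BCAA-free sham libraries 10160, 10704 and 10038. All 3 BCAA-free sham libraries lay below the control sham libraries, and Col4a2 fell by 0.45 ± 0.10 (-27.0%, adjusted p = 0.0449). Control TAC libraries held 19081, 15939 and 18515 normalised reads and BCAA-free TAC libraries 18005, 11364 and 10416. The diet difference in TAC hearts was -0.46 ± 0.18 (adjusted p = 0.199), and -0.70 ± 0.09 (adjusted p = 0.00519) without BCAA-free TAC replicate 1. TAC against sham gave 0.34 ± 0.12 (adjusted p = 0.147) and 0.32 ± 0.16 (adjusted p = 0.275) on the control and BCAA-free diets, the first of which passed without control sham replicate 2 (0.49, adjusted p = 0.0263). The second was 0.08 ± 0.07 without BCAA-free TAC replicate 1 (adjusted p = 0.548). With diet on average Col4a2 fell by 0.46 ± 0.12 (adjusted p = 0.0224), a call that was lost after leaving out both control TAC replicates 2 and 3 (adjusted p = 0.0645). In sham hearts the calls of both Col4a1 (adjusted p = 0.0521 to 0.0615) and Col4a2 (adjusted p = 0.125 to 0.171) were lost when any 1 BCAA-free sham library was left out, and that of Col4a2 also with a minimum mean of 50 (adjusted p = 0.0515) or quantile normalization (adjusted p = 0.0608). The average diet call of Col4a2 was lost without control sham replicate 2, BCAA-free sham replicates 1 or 3, or BCAA-free TAC replicate 2 (adjusted p = 0.0541 to 0.0631), and that of Col4a1 was kept without each library.

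The chains of the other collagen IV trimer were far lower. Col4a3 held 154, 185 and 124 normalised reads in control sham, 124, 167 and 167 in control TAC, 111, 107 and 80.0 in BCAA-free sham, and 135, 122 and 97.3 in BCAA-free TAC libraries. Its BCAA-free sham libraries lay below all control sham libraries, with a difference of -0.60 ± 0.19 that did not pass (adjusted p = 0.117) except without control sham replicate 3 (-0.75, adjusted p = 0.0406). Averaged over surgery Col4a3 fell by 0.48 ± 0.14 (adjusted p = 0.0379), a call lost in 9 of the 12 fits without 1 library (adjusted p = 0.0521 to 0.0966) and kept only without BCAA-free TAC replicate 1, control TAC replicate 1 or control sham replicate 3. It was also lost after leaving out both control TAC replicates 2 and 3 (adjusted p = 0.258).

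Col4a4, which shares its start region with Col4a3, ranged from 285 to 409 normalised reads over the 12 libraries, and its groups overlapped in all 4 pairwise comparisons. Its average diet difference was -0.20 ± 0.09 (adjusted p = 0.172), and it passed without BCAA-free TAC replicate 1 (-0.27, adjusted p = 0.0447). Col4a5, on the X chromosome, ranged from 1149 to 1710 normalised reads and passed no comparison. Its diet difference in sham hearts was -0.05 with a 95% interval from -0.21 to 0.11, and its TAC difference was 0.15 (-0.06 to 0.37) on the control diet. The 2 Col4a5 libraries above 1600, control TAC replicate 1 and BCAA-free TAC replicate 1, were also the highest of their groups for Col4a1, Col15a1 and all 3 collagen VI genes.

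**Figure D2:**
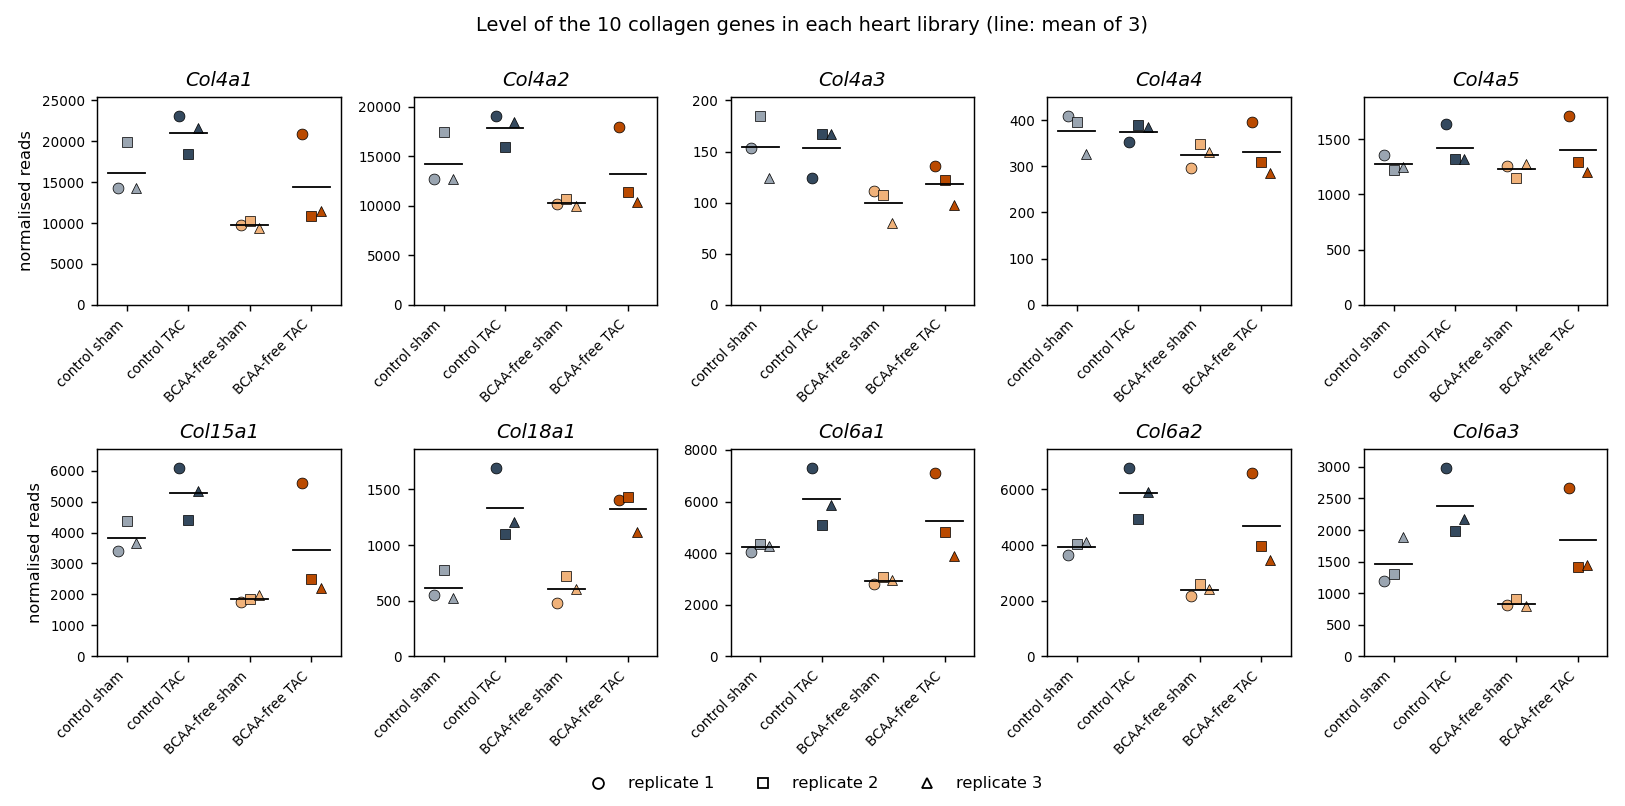
Normalised reads (linear axes from 0) of each of the 10 genes in each library; colours give the 4 groups, shapes the replicate number and lines the mean of 3. BCAA-free TAC replicate 1 (circle) stands above the other 2 libraries of its group for all genes but Col18a1, and Col15a1 in BCAA-free sham hearts, at 1742 to 1997, lies below its control sham range of 3411 to 4373.

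Col15a1, which encodes the collagen XV of the outer basement membrane of muscle and capillaries, had the largest diet difference of the 10 genes. Control sham libraries held 3411, 4373 and 3659 normalised reads, and BCAA-free sham libraries held 1742, 1867 and 1997. The groups did not overlap, and Col15a1 fell by 1.02 ± 0.09 on the log2 scale, a change of -50.7% (adjusted p = 0.00132), and the call was kept without each of the 6 libraries. Control TAC libraries held 6100, 4393 and 5337 normalised reads and BCAA-free TAC libraries 5596, 2514 and 2206. The difference in TAC hearts was -0.73 ± 0.30 (adjusted p = 0.217), and it was -1.14 ± 0.13 (adjusted p = 0.00239) without BCAA-free TAC replicate 1, whose level was 2.37 times the mean of the other 2 libraries. On average over surgery Col15a1 fell by 0.87 ± 0.17 with diet (adjusted p = 0.0064), also without each library.

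Every control TAC library lay above every control sham library for Col15a1, as did the BCAA-free TAC libraries against BCAA-free sham, but neither surgery difference passed by limma. They were 0.46 ± 0.12 (adjusted p = 0.0631) on the control diet and 0.75 ± 0.26 (adjusted p = 0.131) on the BCAA-free diet. The first passed with DESeq2 (0.47, adjusted p = 0.00516), not with edgeR (adjusted p = 0.0756). By limma it passed without control sham replicate 2 (0.57, adjusted p = 0.0478) and without control TAC replicate 2 (0.59, adjusted p = 0.0375). Without control TAC replicate 1, the highest library of its group, it was 0.35 (adjusted p = 0.171). With that library alone in its group it was 0.69. The second passed without BCAA-free TAC replicate 1 (0.34, adjusted p = 0.036) and without replicate 3 (1.01, adjusted p = 0.0331).

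Col18a1, the source of collagen XVIII and endostatin, had another pattern: its level differed with surgery and not detectably with diet. Control sham libraries held 554, 775 and 527 normalised reads and control TAC libraries 1697, 1098 and 1208. BCAA-free sham libraries held 483, 718 and 607, and BCAA-free TAC libraries 1406, 1437 and 1119. TAC libraries lay above sham libraries on both diets. Col18a1 rose 2.15-fold on the control diet (1.10 ± 0.18, adjusted p = 0.0135) and 2.20-fold on the BCAA-free diet (1.14 ± 0.14, adjusted p = 0.00313). The first was 0.91 without control TAC replicate 1, the highest library of its group (adjusted p = 0.0271), and 1.47 with that library alone in its group. The call on the control diet was lost without control sham replicate 1 (adjusted p = 0.0502), and that on the BCAA-free diet was kept without each library. The diet differences were -0.03 in sham hearts (95% interval -0.39 to 0.32) and 0.01 in TAC hearts (-0.35 to 0.37), which leaves room for changes of up to about that size in either direction. The latter was 0.19 without control TAC replicate 1 and -0.36 with that library alone in its group.

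The 3 collagen VI genes rose with TAC on the BCAA-free diet, and all 3 fell with diet in sham hearts. Col6a1, for the α1(VI) chain, held 4028, 4343 and 4290 normalised reads in control sham and 7319, 5100 and 5855 in control TAC libraries. It held 2788, 3071 and 2944 in BCAA-free sham and 7095, 4804 and 3889 in BCAA-free TAC libraries. No TAC library overlapped the sham libraries of its diet. Col6a1 rose by 0.52 ± 0.11 after TAC on the control diet (adjusted p = 0.0344) and by 0.80 ± 0.17 on the BCAA-free diet (adjusted p = 0.0264), and in sham hearts it fell by 0.52 ± 0.06 with diet (-30.4%, adjusted p = 0.00341).

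Col6a2, for the α2(VI) chain, held 3630, 4040 and 4115 normalised reads in control sham and 2158, 2605 and 2437 in BCAA-free sham libraries. In control TAC libraries it held 6783, 4947 and 5893, and in BCAA-free TAC libraries 6596, 3953 and 3477. The 4 groups kept the order of Col6a1. Col6a2 fell by 0.71 ± 0.08 with diet in sham hearts (-38.9%, adjusted p = 0.00317) and rose after TAC by 0.57 ± 0.11 (adjusted p = 0.0193) and 0.91 ± 0.19 (adjusted p = 0.0254) on the control and BCAA-free diets. The falls of Col6a1 and Col6a2 in sham hearts were kept without each of the 6 libraries.

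Col6a3, for the long α3(VI) chain whose end is cleaved to endotrophin, held 1193, 1311 and 1893 normalised reads in control sham and 815, 902 and 794 in BCAA-free sham libraries. It held 2989, 1984 and 2175 in control TAC and 2665, 1413 and 1454 in BCAA-free TAC libraries. Col6a3 fell by 0.78 ± 0.14 with diet in sham hearts (-41.6%, adjusted p = 0.0174) and rose 2.11-fold after TAC on the BCAA-free diet (1.08 ± 0.20, adjusted p = 0.0156). On the control diet its difference of 0.71 ± 0.19 did not pass (adjusted p = 0.0588), though TAC and sham libraries did not overlap, and it passed without control sham replicate 3, the highest sham library (0.91, adjusted p = 0.0316).

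Calls on collagen VI in the surgery contrasts were lost in some fits without 1 library. On the control diet, Col6a1 was lost without control TAC replicate 3 or any 1 of the control sham libraries (adjusted p = 0.057 to 0.114), and Col6a2 without control sham replicate 1 or 3 (adjusted p = 0.0506 to 0.0745). On the BCAA-free diet all 3 were lost without any 1 BCAA-free sham library (adjusted p = 0.0766 to 0.118), and Col6a1 also without BCAA-free TAC replicate 2 (adjusted p = 0.0582). Without any 1 BCAA-free sham library the differences themselves stayed at 0.76 to 0.83 for Col6a1, 0.84 to 0.97 for Col6a2 and 1.04 to 1.13 for Col6a3. The count of members that rose was 1 in each of these 3 fits, in which 0.554%, 0.605% and 0.566% of all genes rose. It was 5 without BCAA-free TAC replicate 1 (3.13% of all genes) or replicate 3 (4.52%). On the control diet it was 0 without control sham replicate 1 (1.36% of all genes), 5 without control sham replicate 2 (2.64%) and 5 with DESeq2 (5.67% of all genes). Control TAC replicate 1 was the highest library of its group for all 3 collagen VI genes. Without it Col6a1 was at 0.37, Col6a2 at 0.46 and Col6a3 at 0.53 (adjusted p = 0.0434, 0.0393 and 0.161). With it alone in its group they were at 0.80, 0.79 and 1.06. In sham hearts the diet call of Col6a3 was lost without any 1 BCAA-free sham library (adjusted p = 0.0668 to 0.0973), which left 3 of 10 genes past the threshold, Col15a1, Col6a1 and Col6a2. In these 3 fits 0.425%, 0.328% and 0.374% of all genes fell.

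In TAC hearts the diet differences of collagen VI did not pass: -0.23 ± 0.20 for Col6a1, -0.37 ± 0.21 for Col6a2 and -0.41 ± 0.24 for Col6a3 (adjusted p = 0.565, 0.377 and 0.384). Without BCAA-free TAC replicate 1 they were -0.47 ± 0.15 (adjusted p = 0.0999), -0.64 ± 0.12 (adjusted p = 0.0234) and -0.70 ± 0.15 (adjusted p = 0.0348). Without that library, which was picked out by its high levels of these genes, 5 of 10 genes fell in TAC hearts. They were Col4a1, Col4a2, Col15a1, Col6a2 and Col6a3, where 3.59% of all genes fell. Without control TAC replicate 1 the 3 collagen VI differences were -0.10, -0.26 and -0.23, and without BCAA-free TAC replicate 3 -0.04, -0.19 and -0.27. Without control TAC replicate 2 they were larger, at -0.35, -0.48 and -0.52, and in these fits they did not pass. Averaged over surgery, Col6a1 fell by 0.38 ± 0.12 (adjusted p = 0.0481), Col6a2 by 0.54 ± 0.12 (adjusted p = 0.0139) and Col6a3 by 0.59 ± 0.16 (adjusted p = 0.0257). The average call of Col6a2 was kept without each library. That of Col6a1 was lost in 10 of the 12 fits without 1 library (adjusted p = 0.068 to 0.109), all but those without control TAC replicate 2 or BCAA-free TAC replicate 1, and with edgeR (adjusted p = 0.0577). That of Col6a3 was lost without control TAC replicate 1, BCAA-free sham replicate 1 or 3, or BCAA-free TAC replicate 2 or 3 (adjusted p = 0.0537 to 0.0713).

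Whether the response to TAC differed between the diets was tested as an interaction. It passed for 0 of the 10 genes and for 0.0451% of all 15524 genes, with 0 members at an unadjusted p under 0.05 (10.1% of all genes), and 0 members passed with edgeR and with DESeq2. The differences of the TAC responses ran from -0.01 for Col4a2 (95% interval -0.52 to 0.49) to 0.37 for Col6a3 (-0.31 to 1.04). For Col15a1 the difference was 0.29 (-0.46 to 1.04). Without BCAA-free TAC replicate 1 these values were lower: -0.25 for Col4a2, 0.07 for Col6a3 and -0.13 for Col15a1, with 0.05 for Col6a1 (0.28 with it) and -0.20 for Col4a1 (0.10 with it). The intervals of all 10 genes with all libraries include 0, and that of Col6a3 also includes a response larger by its whole TAC difference on the control diet, 0.71.

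Ratios between partner chains within a library do not depend on its depth, and they were chosen after the levels were seen, so they are described with no test. The ratio of Col4a1 to Col4a2, in normalised reads per kilobase, was 1.09, 1.11 and 1.09 in control sham libraries and 0.937, 0.930 and 0.912 in BCAA-free sham libraries, with no overlap. It was 1.18, 1.13 and 1.14 in control TAC and 1.13, 0.934 and 1.07 in BCAA-free TAC libraries. Whether a ratio lies above or below 1 depends on the transcript length used, but the differences between libraries do not. The ratio of Col6a2 to Col6a1 ranged from 0.794 to 0.845 in control sham and from 0.682 to 0.747 in BCAA-free sham libraries, again with no overlap. It was 0.817 to 0.887 in control TAC and 0.725 to 0.819 in BCAA-free TAC libraries, which overlapped narrowly. The ratio of Col6a3 to Col6a1 was 0.120, 0.122 and 0.179 in control sham, 0.119, 0.119 and 0.109 in BCAA-free sham, 0.166, 0.158 and 0.151 in control TAC and 0.152, 0.119 and 0.152 in BCAA-free TAC libraries. The ratio of Col4a4 to Col4a3 ranged from 1.81 to 2.25 in control sham and from 2.25 to 3.50 in BCAA-free sham libraries, where Col4a3 has the fewest reads.

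**Figure D3:**
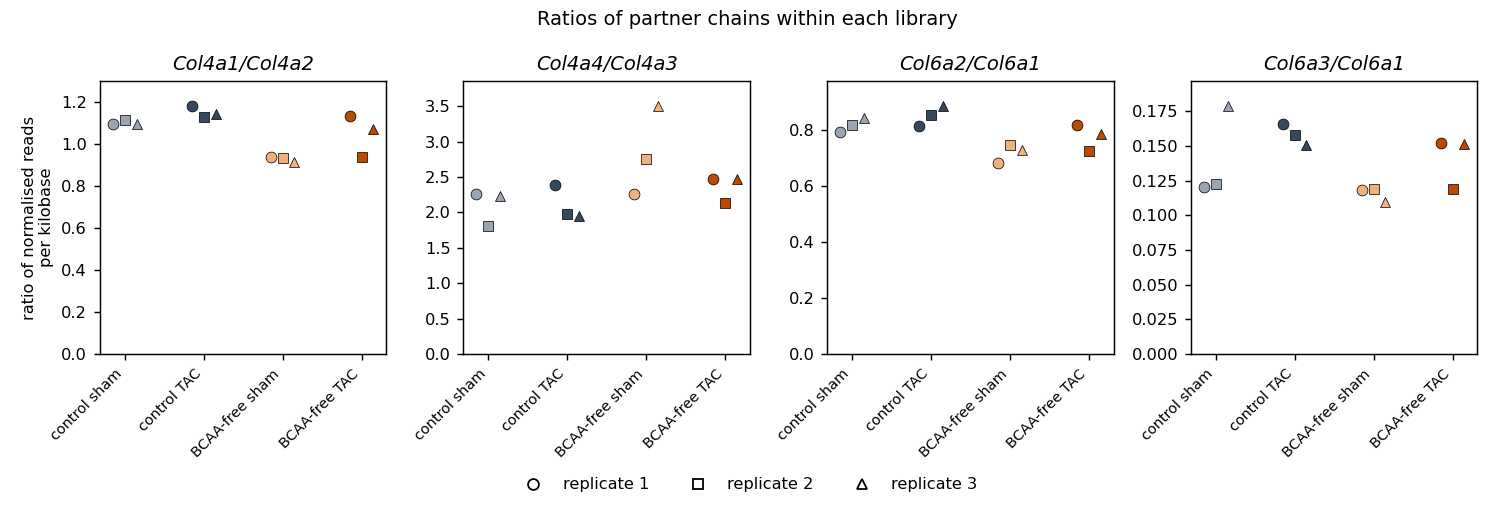
Ratio of normalised reads per kilobase between partner chains in each library (linear axes from 0); colours give the 4 groups and shapes the replicate number. The Col4a1/Col4a2 ratio lies between 1.09 and 1.11 in control sham and between 0.912 and 0.937 in BCAA-free sham libraries.

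Levels of most partner chains, though not of Col4a5, went together over the 12 libraries, as a description of points that share groups and library composition. Pearson's r of log2 levels was 0.989 for Col4a1 with Col4a2, 0.989 for Col6a1 with Col6a2 and 0.980 for Col4a1 with Col15a1. It was 0.744 for Col4a3 with Col4a4, and 0.549 for Col18a1 with Col4a1. Col4a5 followed the other chains of its trimer less closely, with r of 0.397 with Col4a4 and 0.186 with Col4a3. Among 12713 genes compared, the non-member genes most like Col4a1 were Ptgfrn (r = 0.967), Oas1a (0.957) and Osbpl9 (0.954). Those most like Col15a1 were Tmsb4x, which encodes an actin-binding peptide (r = 0.968), Itga9, an integrin subunit (0.949), and Tuba1a, a tubulin (0.948). Those most like Col6a3 were Emilin1, a glycoprotein of elastic fibres (r = 0.980), Arpc1b, a subunit of the actin-branching Arp2/3 complex (0.969), and Plekha4 (0.965). Emilin1 held 1306, 1456 and 1667 normalised reads in control sham, 922, 1039 and 1009 in BCAA-free sham, 2654, 1647 and 1884 in control TAC, and 2165, 1450 and 1322 in BCAA-free TAC libraries.

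Of 4 further chains of these families, Col4a6 and Col6a6 passed the filter on low values, and 0 of these 2 passed by limma in any comparison. Both had an unadjusted p under 0.05 after TAC on the control diet and with diet in sham hearts, and DESeq2 called 1, after TAC on the control diet, while edgeR called 0. Col4a6 was at 0.77 ± 0.22 after TAC on the control diet (adjusted p = 0.0775), and Col6a6 at -0.36 ± 0.14 with diet in sham hearts (adjusted p = 0.199).

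Some other basement membrane genes were lower on the BCAA-free diet too, while others were not. Counts of these genes stand beside 1.76% of all genes that fell with diet in sham hearts, 2.11% in TAC hearts and 6.57% on average. The share of all genes that rose on average was 5.19%. Of 10 laminin chains tested, the second network of the basement membrane, 5 fell and 0 rose with diet in sham hearts (median -0.34), and 5 fell and 1 rose with diet on average (median -0.16). On average Lama3, the α3 chain, fell by 0.86 ± 0.14 (adjusted p = 0.00274), Lama4, a main α chain of vessel basement membranes, by 0.34 ± 0.06 (adjusted p = 0.00278), and Lamb1, a β chain, by 0.30 ± 0.05 (adjusted p = 0.00298). These 3 average calls were kept without each library. In TAC hearts Lama4 alone of the laminins fell with diet (-0.34 ± 0.08, adjusted p = 0.048), a call lost without 5 of the 6 libraries and kept without BCAA-free TAC replicate 1 (adjusted p = 0.117 to 0.171 where lost). After TAC on the control diet 1 of 10 laminins rose and 0 fell by limma, where 3.4% of all genes rose. The counts were the same with edgeR, and with DESeq2 1 rose and 1 fell. After TAC on the BCAA-free diet 0 of 10 laminins passed by limma (4 at an unadjusted p under 0.05), with 0 by edgeR and 1 by DESeq2.

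Of 11 linker genes, which join the laminin and collagen IV networks or bind them, 5 fell in sham hearts with diet (median -0.32), 3 fell in TAC hearts, and 7 fell and 2 rose on average (median -0.31). The highest linker difference on average was 0.85. Nid2, a nidogen that bridges both networks, had the largest fall on average (-0.97 ± 0.11, adjusted p = 0.000434). It held 941, 1313 and 771 normalised reads in control sham, 588, 649 and 481 in BCAA-free sham, 1471, 1440 and 1384 in control TAC, and 690, 624 and 607 in BCAA-free TAC libraries. All 3 BCAA-free TAC libraries of Nid2, replicate 1 included, lay below all control TAC libraries, and it fell by 1.15 ± 0.08 in TAC hearts (adjusted p = 0.000794), though not after leaving out both control TAC replicates 2 and 3 (adjusted p = 0.0803). Nid1, the other nidogen, fell by 0.48 ± 0.07 on average (adjusted p = 0.000866), and Agrn, the proteoglycan agrin, by 0.32 ± 0.05 (adjusted p = 0.00219). These 3 average calls were kept without each library. With surgery, Sparc, a collagen-binding protein that helps collagen IV to deposit, rose 1.01 ± 0.14 on the control diet (adjusted p = 0.0081) and 1.28 ± 0.24 on the BCAA-free diet (adjusted p = 0.0164), the second of which was lost without any 1 BCAA-free sham library (adjusted p = 0.0798 to 0.091).

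Further genes encode enzymes and chaperones that fold, secrete and cross-link these collagens. Of 16 tested, 3 fell in sham hearts with diet, 2 in TAC hearts and 5 on average (medians -0.12, -0.16 and -0.13), and 0 rose. Pxdn, the peroxidase that forms the sulfilimine cross-links of collagen IV, fell by 0.68 ± 0.08 on average (adjusted p = 0.00049). Plod1, a lysyl hydroxylase, fell by 0.37 ± 0.06 (adjusted p = 0.00266), and Serpinh1, the collagen chaperone HSP47, by 0.55 ± 0.12 (adjusted p = 0.00821). These 3 average calls were kept without each library. Loxl2, a lysyl oxidase that cross-links collagen IV, rose after TAC on the control diet (0.90 ± 0.20, adjusted p = 0.0345) and on the BCAA-free diet (1.15 ± 0.25, adjusted p = 0.0319), both lost without any 1 of the sham libraries of that diet (adjusted p = 0.069 to 0.157).

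Of 17 receptor genes, 2 fell in sham hearts with diet, 2 of 16 in TAC hearts and 4 of 17 on average, and 0 rose with diet (median on average -0.13). The average difference lay above 0 for 7 of the 17. Itga1, the integrin α1 chain that binds collagen IV, held 1078, 1142 and 1048 normalised reads in control sham, 615, 701 and 588 in BCAA-free sham, 822, 1002 and 905 in control TAC, and 625, 481 and 581 in BCAA-free TAC libraries. Its BCAA-free libraries lay below the control libraries in both surgeries, and it fell by 0.73 ± 0.07 on average (adjusted p = 0.000287). Itga6, a laminin-binding integrin chain, fell by 0.60 ± 0.11 (adjusted p = 0.00468), and Ddr2, a receptor kinase for collagens, by 0.31 ± 0.06 (adjusted p = 0.0049). These 3 average calls were kept without each library. Ddr1, a receptor kinase that binds collagen IV, rose after TAC on the control diet (0.60 ± 0.12, adjusted p = 0.0257) and on the BCAA-free diet (0.44 ± 0.10, adjusted p = 0.0311). The first was lost without control sham replicate 1 or 3 (adjusted p = 0.0821 to 0.0891) and the second without any 1 BCAA-free sham library (adjusted p = 0.104 to 0.144).

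**Figure D4:**
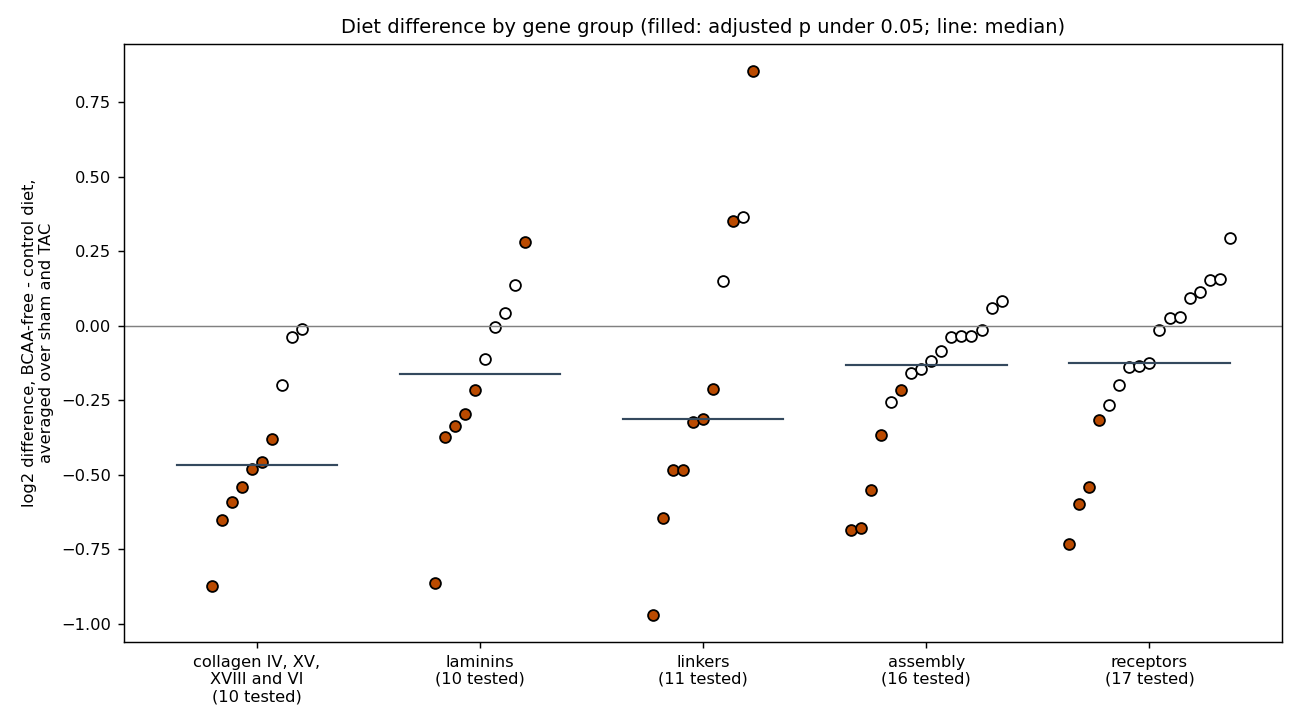
Log2 difference between BCAA-free and control diet, averaged over sham and TAC hearts, for each gene tested of the 10 collagen genes and of the laminin, linker, assembly and receptor lists; filled points passed an adjusted p of 0.05 in limma and lines give list medians. The collagen median of -0.47 lies below the medians of -0.16, -0.31, -0.13 and -0.13, and the lowest point is Nid2 at -0.97.

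Markers of the cell types that make these collagens moved with some of the results. Their counts stand beside those of all genes. With diet, 1.76% of all genes fell in sham hearts, and 6.57% fell and 5.19% rose on average. In TAC hearts 206 of 16222 genes rose with diet. After TAC, 3.4% rose and 1.94% fell on the control diet, and 2.94% rose and 1.37% fell on the BCAA-free diet. All 8 cardiomyocyte markers were present, with summed levels of 2710920 to 3413520 normalised reads per library. In sham hearts 4 of 8 fibroblast markers fell with diet, Pi16, Dpt, Mfap5 and Lum. All 8 had a diet difference below 0 there (median -0.34), as did all 10 collagen genes. So did all 8 macrophage markers (median -0.38) and 9 of 10 endothelial markers (median -0.15). Above 0 were 5 of 8 cardiomyocyte markers (median 0.03) and 7 of 10 mural markers (median 0.06). The summed level of all 8 fibroblast markers was 72993 to 83122 in control sham against 69422 to 73000 in BCAA-free sham libraries. The sum was 52819 to 61227 in control TAC and 73649 to 82993 in BCAA-free TAC libraries, with no overlap. Such a sum is weighted to its most abundant genes. Of the 8 markers singly, 6 had a diet difference above 0 in TAC hearts and 2 below (median 0.19), and 1 rose past the threshold. Of the 10 collagen genes, 9 had a diet difference below 0 in TAC hearts, with 0 past the threshold. Of 10 endothelial markers, Erg fell with diet in sham hearts, and the summed level was 41058 to 51892 in control sham, 38847 to 42594 in BCAA-free sham, 36959 to 43244 in control TAC and 34783 to 36419 in BCAA-free TAC libraries. On average over surgery 3 of 10 endothelial markers fell with diet, Cdh5, Erg and Pecam1, and 2 of 10 mural markers, Myh11 and Tagln, rose. All 10 endothelial markers had a difference below 0 after TAC on the control diet (median -0.20, 1 fell) and on the BCAA-free diet (median -0.20, 2 fell). After TAC 1 of 8 fibroblast markers rose and 2 fell on the control diet (median 0.03), and 4 rose and 0 fell on the BCAA-free diet (median 0.32), namely Mfap5 (2.07), Pi16 (1.26), Lum (0.85) and Dpt (0.40). Of 10 mural markers, 2 rose and 2 fell after TAC on the control diet, and 3 rose and 1 fell on the BCAA-free diet. Of 8 macrophage markers, 2 fell with diet in sham hearts, 1 rose after TAC on the control diet and 7 on the BCAA-free diet, with a sum of 6428 to 7059 in BCAA-free sham and 11176 to 13135 in BCAA-free TAC libraries. None of the cardiomyocyte, endothelial, fibroblast, mural or macrophage markers was at 0, and their part in the collagen differences was not tested. In whole hearts, fewer cells of a type and less RNA per cell cannot be told apart.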

How the data were processed

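Polyadenylated RNA of 12 heart libraries was analysed, 3 in each of 4 groups. The submitters' processing notes name Trimmomatic 0.36, STAR 2.5.2b, DESeq2 and Subread 1.5.2 with the GRCm38 build, and no strand setting. The authors deposited 1 table per pair of groups, with a signal per library that they made by scaling reads with a size factor of that table: in each column the values are whole multiples of 1 number. Dividing by that number gave whole reads for 100% of values (tolerance 0.001 reads). The log2 fold changes and p-values that the authors deposited were not used.

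Differences were tested within each table with limma 3.58.1 with a trend (R 4.3.3) on log2(value + 4), a scale that understates changes of low genes. Genes needed a mean of 10 or more, and Benjamini-Hochberg adjustment covered every gene tested. The interaction used both surgery tables, and the diet average both diet tables. Alternatives were edgeR 4.0.16 and DESeq2 1.42.0 on recovered reads, a pseudocount of 1, a minimum mean of 50, no filter, quantile normalization, a replicate block, levels by library total, and leaving out libraries, with the filter applied anew. The test code was tested on simulated data. All 10 genes are named. Of each further list, genes are named from the 3 that passed the threshold with the smallest p in a comparison, and 3 genes of the most similar pattern are named for Col4a1, Col15a1 and Col6a3; Col4a6, Col6a6 and single markers were named after their values were seen. The 10 genes and the lists were chosen with earlier results of these data known. Protein features were not analysed here.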

Additional observations from a re-analysis of the deposited data

How the results depend on the processing

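No called difference of the 10 genes reversed its direction under the alternatives run. The number of members past the threshold for TAC on the control diet, 3, was 5 with DESeq2. Leaving out 1 library gave 0 to 5 members for TAC on the control diet, 1 to 5 for TAC on the BCAA-free diet, 3 to 7 for diet in sham hearts, 0 to 5 for diet in TAC hearts, 0 to 0 for the interaction and 3 to 8 for diet on average. A fit that leaves an arm with 1 library assumes that it varies like the other groups, and the cause of these shifts was not tested.

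Whether replicate numbers pair the libraries is not settled. Same-numbered libraries correlated in their deviations at -0.15 to 0.32, and in no comparison did all 3 pass 0.1. In both diet comparisons all 3 were above 0, with 0.32 for replicate 1 in TAC hearts against -0.12 for its best other number. With the replicate block, 4 members passed for diet in TAC hearts in place of 0, and the block changed no other count of members. Over all genes the block gave 713 calls for diet in sham hearts in place of 438, 1275 for diet in TAC hearts in place of 548, and 3 for the interaction in place of 7. DESeq2 called 1537, 1145, 812, 1189 and 113 genes where limma called 848, 688, 438, 548 and 7, for TAC on the control and BCAA-free diets, diet in sham and TAC hearts and the interaction. After leaving out both control TAC replicates 2 and 3, 0 genes passed for diet in TAC hearts (1889 at an unadjusted p under 0.05), 1 for the interaction and 850 in place of 1819 for diet on average. The interaction called 4 genes with a pseudocount of 1, with a minimum mean of 50 or with quantile normalization. Depth limits Col4a3 most, at 80.0 to 185 normalised reads per library.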
